A study of Mus musculus with 2 samples.

Results

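Mir139, Mir744 and Mir652 are 3 microRNA (miRNA) genes among 2202 listed in a microRNA sequencing experiment on the left cerebral cortex of mice. They were taken by their symbols in GENCODE annotation M21, and they were chosen by their high read counts in these same libraries, so their levels are given as a description, with no test. The tissue came from male B6CASTF1/J mice, first-generation offspring of a cross of B6 with CAST, at an age of 10 days. The study holds 1 group of 2 biological replicates, which the labels number 1 and 2 under 1 donor entry, with no treatment, mutant or other tissue beside them. Each replicate has 1 library of total RNA in a size range below 30, as the labels give it. Reads were counted per gene, that is per hairpin precursor, on the strand of the gene, and the 2 arms of a hairpin were not counted apart.

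A miRNA is cut from a hairpin in a longer transcript, first by Drosha in the nucleus and then by Dicer in the cytoplasm, which leaves a short duplex of the 5p and the 3p arm. One arm is loaded into an Argonaute protein and pairs with messenger RNAs mainly through its seed, bases 2 to 8 from its 5′ end, which lowers their stability and translation. Many miRNA hairpins lie in introns of protein-coding genes and are made from the host's transcript. The host Pde2a encodes a phosphodiesterase that breaks down cAMP and cGMP and is expressed in the forebrain. Map2k4 encodes MKK4, a kinase that activates the JNK pathway, and Tmem164 encodes a membrane protein. In human tumours miR-139-5p has been studied as a miRNA that is lost during progression, in human cells miR-744 has been reported to repress TGFB1, and miR-652 has been followed in human blood as a circulating miRNA in heart disease.

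The mature arms are shown here because the seed decides which transcripts a miRNA can pair with, and the capitals mark the seed. The sequences are those of RefSeq on build GRCm38.p6, written 5′ to 3′. All 3 genes had an entry in the RefSeq table, with both arms.
miR-139-5p: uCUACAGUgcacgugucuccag
miR-139-3p: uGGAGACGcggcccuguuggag
miR-744-5p: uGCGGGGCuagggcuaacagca
miR-744-3p: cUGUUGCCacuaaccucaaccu
miR-652-5p: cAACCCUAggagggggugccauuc
miR-652-3p: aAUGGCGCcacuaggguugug

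None of the 6 seeds was shared with another of the members, nor with any arm of another gene among the 1738 mature arms of the table. A seed held by no other gene of the table is common, since 68.0% of its arms had one, though the table lacks the arms of some genes. None of the 6 arms occurred, on either strand, in a GENCODE M21 transcript of another gene. Both arms of miR-139 and the 5p arm of miR-744 begin with U, as 41.3% of the arms in the table do, while the other 3 begin with C or A. The GC content ran from 50% in miR-744-3p to 68.2% in miR-139-3p.

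The hairpins are shown because the counts are sums over them, and the capitals mark the mature arms. Mir139 (ENSMUSG00000065446.1) is at chr7:101475376-101475443 on the plus strand of mm10, the build of the deposited counts. Mir744 (ENSMUSG00000076460.1) is at chr11:65734733-65734832 on the minus strand, and Mir652 (ENSMUSG00000076011.1) at chrX:142739000-142739097 on the plus strand.
Mir139: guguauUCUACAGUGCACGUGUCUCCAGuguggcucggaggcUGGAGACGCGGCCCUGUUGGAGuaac
Mir744: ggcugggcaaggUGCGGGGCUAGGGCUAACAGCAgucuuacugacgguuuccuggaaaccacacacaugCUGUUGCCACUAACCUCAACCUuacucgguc
Mir652: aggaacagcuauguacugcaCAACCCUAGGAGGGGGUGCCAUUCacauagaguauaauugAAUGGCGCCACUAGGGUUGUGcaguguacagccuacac

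The 3 hairpins differ in shape. Mir139 is the shortest at 68 bases, against 98 for Mir652 and 100 for Mir744, where the median of the 442 detected genes (the detection limit is given with the levels) was 82. RNAfold predicted 19 base pairs between the arms of Mir139, 16 between those of Mir744 and 18 between those of Mir652. The arms lie 14 bases apart in Mir139 and 16 in Mir652, close to the median of 16 over 644 RefSeq hairpins with 1 arm on each side, but 35 apart in Mir744. The predicted free energy per base was -0.52 kcal/mol for Mir139, -0.50 for Mir652 and -0.45 for Mir744. The quartiles of the detected hairpins were -0.48 and -0.38, so Mir139 and Mir652 lay past the more stable quartile and Mir744 between the quartiles. The letters UGU or GUG, an apical motif that aids processing in human cells, occur between the arms of Mir139 and not of the other 2, and in 41.1% of the 644 hairpins.

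**Figure D1:**
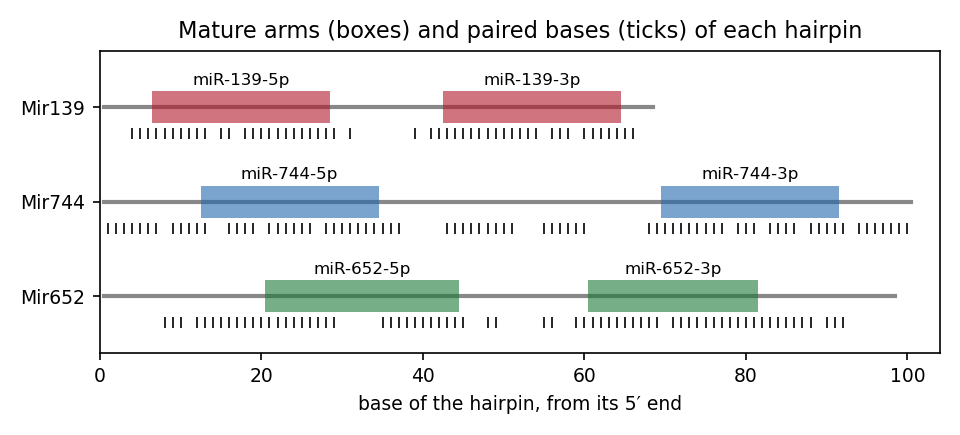
Position along each hairpin in bases from its 5′ end (x axis) of the 2 mature arms (boxes) and of the bases paired in the structure predicted by RNAfold (ticks), for Mir139, Mir744 and Mir652. The stretch between the arms is 35 bases in Mir744, against 14 in Mir139 and 16 in Mir652.

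Each hairpin lies in an intron of a protein-coding gene, on the host's strand. Mir139 is in intron 2 of Pde2a (transcript Pde2a-201), an intron of 29902 bases, 23907 bases after the upstream exon and 5927 before the downstream one. The gene Gm45837, annotated as protein-coding over the same stretch, also holds it in an intron. Mir744 is in intron 3 of Map2k4 (Map2k4-201), 359 bases after the upstream exon and 15129 before the next. Mir652 is in intron 2 of Tmem164 (Tmem164-201), 56050 bases after the upstream exon and 12942 before the downstream one. All 4 coding transcripts of Pde2a, 3 of 4 of Map2k4 and 5 of 7 of Tmem164 span the hairpin, and in none of these is it exonic. Over the 156 detected single-copy intronic genes with a measured intron, the members among them, the median intron was 3350 bases and the upper quartile 20454. The introns of Mir139 and Mir652 lie past that quartile and the Mir744 intron, of 15588 bases, between it and the median. The distance of Mir139 and Mir652 to the nearest exon exceeds the upper quartile of 4380 bases. The 359 bases of Mir744 are not unusual, since the median was 465 and 75 of the 156 genes lay nearer to an exon. Expression of the host genes was not measured here.

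**Figure D2:**
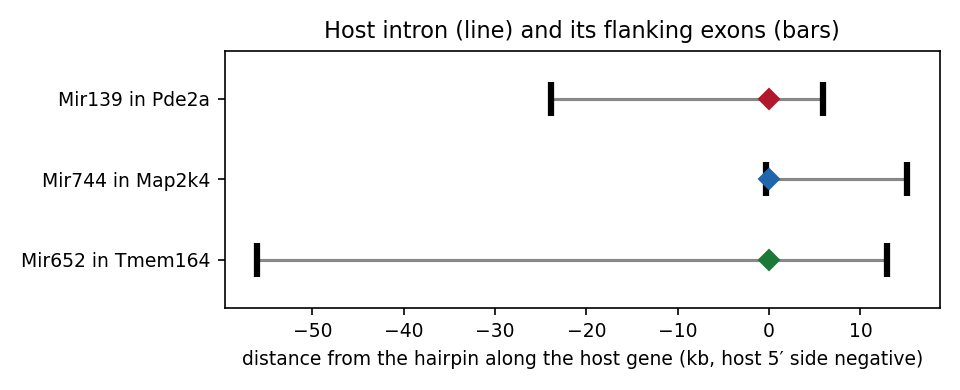
Distance in kb along the host gene from each hairpin (diamond, at 0) to the exons on either side (bars), with the host's 5′ side negative. Mir744 sits 359 bases from the upstream exon of Map2k4, while Mir139 and Mir652 lie 5927 and 12942 bases from their nearest exon.

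Mir139, Mir744 and Mir652 each stand alone in sequence and in the genome. No 20-base stretch of the hairpins occurs in another listed hairpin on either strand, and neither does one of 18 or 16 bases. The longest stretch shared with any other listed hairpin was 11 bases for Mir139, 14 for Mir652 and 15 for Mir744. Of the 2202 listed genes, 1087 do share 20 bases with another listed hairpin, and their reads can map to more than 1 place and are then given to no gene. No other listed miRNA gene lies within 50000 bases of a member, and the nearest is 405741 bases from Mir139, 666926 from Mir744 and 223506 from Mir652. Of the 23 genes that averaged 10000 CPM or more (the unit of level defined with the read totals), 6 had no listed neighbour within 50000 bases, and 13 of the 22 found in the RefSeq table had arms whose seeds no other gene has. The genes with both features were Mir139, Mir744 and Mir652, and this combination was noticed after the values had been seen. Both features are common among all 442 detected genes, where 209 (47.3%) had no such neighbour, 189 of the 401 in the RefSeq table (47.1%) had seeds of their own and 112 had both. The table holds no arm of Mir30d, and only 1 each of Mir487b, Mir126a and Mir23b, which are among the 13. A seed shared with a missing arm would go unseen, so for the genes it holds these counts of own seeds are upper limits.

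Replicate 1 held 2677910 reads on the strand of a listed gene and replicate 2 held 1750076, and levels are given in CPM, the count per 1000000 reads of that total. Detection needed at least 2 CPM in each library, a limit that 442 genes (20.1%) reached. A count of 3 reads, the upper limit that a count of 0 allows, corresponds to 1.12 CPM in replicate 1 and 1.71 CPM in replicate 2. Multiply mapped reads made up 51.2% and 49.2% of the mapped reads and are in no gene's count. The labelled tissue was checked against neuronal miRNAs. Of 17 marker genes, 13 were detected, led by Mir128-1 (18242 and 9510 CPM) and Mir137 (11808 and 8069 CPM). Some of the 13 were low, such as Mir9-3 (161 and 76 CPM), Mir9-1 (38.8 and 30.3 CPM) and Mir218-1 (10.8 and 9.71 CPM). Mir9-2 and the 3 genes of miR-124 were not detected, and the miR-124 genes had at most 10 reads each. The miR-124 genes share 20 bases with one another, and Mir128-1 also shares 20 bases with another hairpin. None of the 17 had 0 reads in both libraries. Summed, they took 4.61% of reads in replicate 1 and 3.57% in replicate 2.

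Mir139 had 190130 reads in replicate 1 and 111504 in replicate 2, or 70999 and 63714 CPM. The share of reads on miRNA genes was 7.10% in replicate 1, with a 95% Wilson interval of 7.07 to 7.13, and 6.37% in replicate 2 (6.34 to 6.41). It ranked 3 in replicate 1 and 4 in replicate 2, with a mean of 67357 ± 5152 CPM (SD, n = 2). The intervals describe the counting error of reads alone, which is what counting error means here. PCR copies a molecule into many reads, so the intervals can be too narrow for the sampling of molecules.

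Mir744 had 83351 reads in replicate 1 and 58245 in replicate 2, or 31125 and 33281 CPM. Its share of reads was 3.11% in replicate 1 (3.09 to 3.13, 95% Wilson) and 3.33% in replicate 2 (3.30 to 3.36), and the mean level was 32203 ± 1525 CPM (SD, n = 2). Mir744 ranked 7 in replicate 1 and 8 in replicate 2, so it lay below Mir139 in both libraries with no overlap.

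Mir652 had 43803 and 28728 reads in replicates 1 and 2, or 16357 and 16415 CPM. Its share was 1.64% in both libraries, with 95% Wilson intervals of 1.62 to 1.65 in replicate 1 and 1.62 to 1.66 in replicate 2. The mean was 16386 ± 41.1 CPM (SD, n = 2), the lowest of the members, at rank 16 in replicate 1 and rank 13 in replicate 2.

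**Figure D3:**
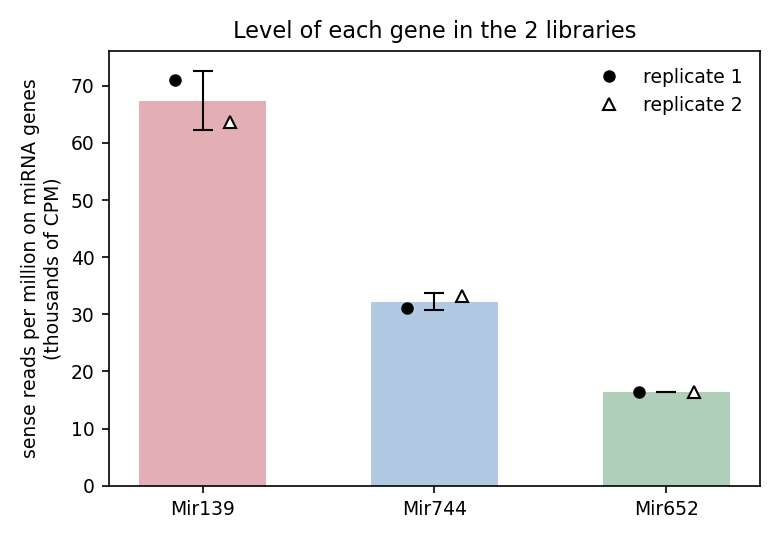
Level of Mir139, Mir744 and Mir652 in CPM, scaled as marked on the axis. Bars are the means of the 2 libraries, error bars the SD, filled circles replicate 1 and open triangles replicate 2. Mir139 lies at 70999 and 63714 CPM, above Mir744 at 31125 and 33281 and Mir652 at 16357 and 16415.

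The step from 1 member to the next was close to 2-fold and can be read within each library, where it does not depend on how the libraries are scaled. Mir139 stood 2.28 times above Mir744 in replicate 1 (95% exact counting interval 2.26 to 2.30) and 1.91 times in replicate 2 (1.895 to 1.93). Mir744 stood 1.90 times above Mir652 in replicate 1 (1.88 to 1.925) and 2.03 times in replicate 2 (1.999 to 2.06). Both steps differed between the libraries by more than counting error, in opposite directions. The annotated arms have 21 to 24 bases in hairpins of 68 to 100, and levels were not divided by hairpin length. The lengths and positions of the reads were not analysed here, and CPM are not copies per cell.

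In the order of all genes, Mir139 stood between Mirlet7b (76099 and 75663 CPM) and Mirlet7g (61533 and 68253 CPM), both of the let-7 family, which restrains proliferation in differentiated cells. The 2 libraries of Mir139 and of Mirlet7g overlap, and the gap between their means, 2464 CPM, is smaller than the SD of either. Mirlet7b was above Mir139 in both libraries. Mir744 stood between Mir127 (40343 and 36984 CPM), an imprinted miRNA of chromosome 12, and Mirlet7d (29134 and 28723 CPM), and its 2 values overlap with neither. Mir652 stood between Mir298 and Mir149 in the order of means. Mir298 had 6378 CPM in replicate 1 and 27444 in replicate 2, so its place beside Mir652 comes from averaging values on either side of it. Mir149, in an intron of Gpc1, had 16376 and 15976 CPM, and overlaps with Mir652.

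Likeness in level was measured as the Euclidean distance over log2 CPM of the 2 libraries, where 0 means equal levels in both. The nearest to Mir139 were Mirlet7g (distance 0.23), Mirlet7b (0.27) and Mirlet7i (0.42), and the nearest to Mir744 were Mirlet7d (0.23), Mir127 (0.40) and Mirlet7e (0.53). The nearest to Mir652 was Mir149 at 0.04, the smallest of these distances, followed by Mir433 (0.29) and Mir99a (0.30). Over 2 libraries this measures abundance rather than a shared pattern.

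Together the members took 317284 reads in replicate 1 and 198477 in replicate 2, which is 11.8% and 11.3% of reads on miRNA genes, a mean of 11.6% ± 0.359 (SD, n = 2). Of all mapped reads, multiply mapped ones included, they took 4.68% in replicate 1 and 4.64% in replicate 2. By comparison 5 single-locus let-7 genes and Mir98 together took 27.6% and 28.3% of reads on miRNA genes. Mir191 and Mir425, neighbouring hairpins on chromosome 9, took 1.04% and 0.970%, of which Mir425 had 812 and 903 CPM. Each of the 3 members on its own thus took a larger share in both libraries than Mir191 and Mir425 together. These comparisons describe these libraries and were not tested.

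The members took a large part of the reads on the class of miRNA genes that lie in an intron of a coding gene on its strand and share no 20-base stretch with another hairpin. Of 442 such genes 159 (36.0%) were detected, a number that equals the count of all detected genes by coincidence, and together they took 31.7% of reads in replicate 1 and 30.3% in replicate 2. Mir139, Mir744 and Mir652 held 37.4% of the reads of this class in replicate 1 and 37.5% in replicate 2. They stood at places 1, 3 and 5 of the class by mean level, with Mirlet7g and Mirlet7e in between. The median level of the 159 detected genes was 25.6 CPM. Of the 23 genes at 10000 CPM or more, 6 belonged to this class.

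**Figure D4:**
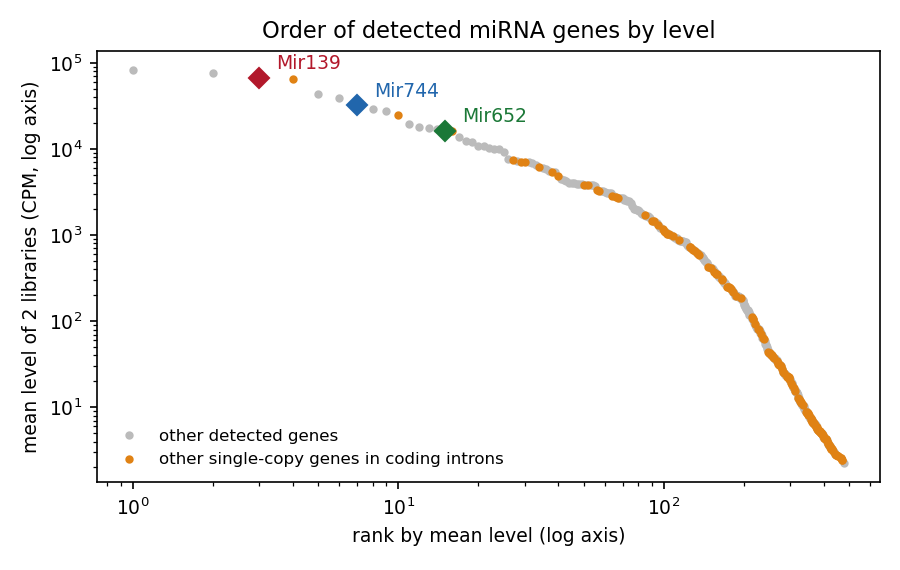
Mean level of the 2 libraries in CPM against the rank of each detected gene, both on log axes. Diamonds mark Mir139, Mir744 and Mir652, orange points the other single-copy genes in coding introns, and grey points the remaining detected genes. The members stand at ranks 3, 7 and 15 by mean level.

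Each member was the most abundant listed miRNA gene of its chromosome, which describes genes that had been chosen by their high counts. Mir139 took 81.3% and 81.7% of the sense reads on the 153 listed genes of chromosome 7 in replicates 1 and 2, and the next gene there was Mir330 at 7175 ± 744 CPM (SD, n = 2). Mir744 took 54.1% and 51.0% of the reads on the 137 genes of chromosome 11, followed by Mir324 at 10973 ± 377 CPM. Mir652 took 38.8% and 35.2% of the reads on the 142 genes of the X chromosome, which a male carries in a single copy, followed by Mir361 at 4866 ± 702 CPM. Genes with copies are undercounted in these totals.

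The strand of the reads was the same for all 3 genes. None had a read on the opposite strand in either library, which allows up to 1.12 CPM in replicate 1 and 1.71 CPM in replicate 2. Counts made without regard to strand were equal to the sense counts for each member. Of the 442 detected genes, 23 had at least 1 opposite-strand read.

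The libraries differed little at the members. Ratios are of CPM with 0.5 reads added to each count, replicate 2 over replicate 1, with exact binomial 95% counting intervals. Mir139 was at 0.897 of its replicate 1 level in replicate 2 (0.891 to 0.904), Mir744 at 1.07 (1.06 to 1.08) and Mir652 at 1.004 (0.989 to 1.02). The intervals of Mir139 and Mir744 leave out 1, so these 2 differed by more than counting error, in opposite directions. The interval of Mir652 includes 1, so with the plain totals no difference beyond counting error was seen. On the log2 scale the differences were -0.16 for Mir139, 0.10 for Mir744 and 0.0051 for Mir652. With TMM totals they were -0.10, 0.15 and 0.06, so the near equality of Mir652 belongs to scaling by the plain total, and with the unstranded counts its sign turned (-0.0031). In bulk tissue, fewer cells that hold a miRNA and less of it per cell cannot be told apart.

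None of the 3 members lay past 1.5-fold between the libraries, against 31.2% of the 442 detected genes (138), and none past 2-fold, against 14.3% (63). Genes at this level spread less in general. Of the 23 genes at 10000 CPM or more, which include the members, 4 lay past 1.5-fold and 1 past 2-fold. Among only 3 genes, none past either fold does not set the members apart from abundant genes in general. The median absolute log2 ratio was 0.35 over detected genes and 0.16 over the 23, where Mir139 stood at the median with the plain totals. With these totals no gene of the 23 differed less than Mir652 and 4 of the 442 did, but with TMM totals 6 of the 23 and 39 of the 442 did, and with DESeq2 size factors 7 and 56. With the plain totals the coefficient of variation over the 2 libraries was 7.65% for Mir139, 4.73% for Mir744 and 0.251% for Mir652, and 2 detected genes had a lower one than Mir652. With 2 libraries a coefficient this small is itself uncertain.

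**Figure D5:**
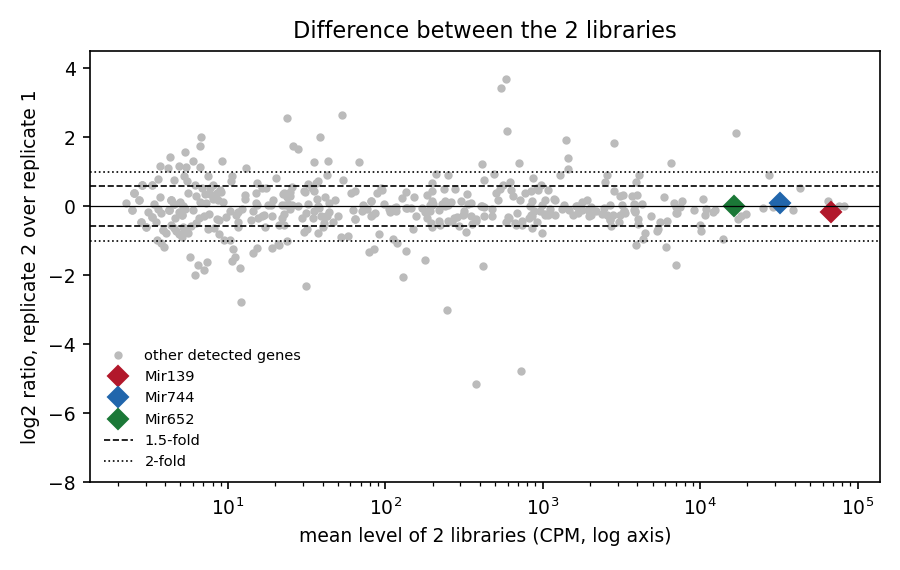
Log2 ratio of replicate 2 over replicate 1 against the mean level in CPM (log axis) for the detected genes. Dashed and dotted lines mark 1.5-fold and 2-fold, and diamonds mark Mir139 (-0.16), Mir744 (0.10) and Mir652 (0.0051), which lie inside both.

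Markers of other cell types differed between the same libraries to unequal degrees, most in the red blood cell and ciliated-cell lists by the median absolute log2 ratio of their detected genes (2.31 in both), and least in the endothelial and mural list (0.07, against 0.10 for the members). Of the red blood cell genes, Mir451a had 737 and 20.6 CPM, Mir144 52.3 and 10.3 CPM and Mir486 25.4 and 25.7 CPM in replicates 1 and 2, and their sum was 0.0814% and 0.00566% of reads. All 5 ciliated-cell genes summed to 0.0345% and 0.159%, with 2 of 5 detected. The 4 microglia and leukocyte genes summed to 0.163% and 0.160%, the 3 endothelial and mural genes to 1.36% and 1.52%, and the 3 oligodendrocyte genes to 0.0834% and 0.142%. The liver gene Mir122 had 55.6 and 45.1 CPM. The summed share of the members was 11.8% and 11.3%, and the part of these cells in it was not tested.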

How the data were processed

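The authors deposited unnormalised counts of reads per hairpin. Assembly mm10 with GENCODE M21 is named in the text deposited alongside. Which aligner, trimmer and counter made them is not given in the sources used here. The 3 columns of counts hold, judging by their values, reads without regard to strand, on the gene's strand and on the opposite strand, and the second of these was used. The 4 rows without a gene did not enter library totals. They hold unmapped reads (25.5% and 42.4% of all reads in replicates 1 and 2), reads mapped to more than 1 place (38.2% and 28.3%), mapped reads outside listed genes (6.93% and 5.74%) and ambiguous reads (0 in the column used). All 2202 identifiers matched the annotation, whose build is that of the counts.

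With 1 group no conditions were compared and no p-value is given. If the 2 libraries were 1 library sequenced again they would differ by counting error only, and they differed by more (chi-square 124119 on 484 degrees of freedom over genes with at least 10 reads). That difference cannot tell separate animals from separate preparations of 1 specimen. Nothing beyond the labels says how the specimens were taken apart, so the SD can mix animal, dissection and library. CPM, ratios and intervals were computed with Python 3.11.15, numpy 2.4.6, scipy 1.17.1 and pandas 2.3.3, structures with RNAfold 2.7.2, and alternative scalings with edgeR 4.0.16 (TMM) and DESeq2 1.42.0 in R 4.3.3. The ratio and its interval were tested on simulated counts that held counting error only. That setting cannot show how the interval does on libraries that differ by more than counting error.

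The members and lists were chosen with earlier results of these data known. Named were the members, the 3 genes nearest each in level, those next to them in the order, the comparison lists, the 5 most abundant single-copy intronic genes and the cell type markers. The genes that follow each member on its chromosome were named after their values were seen. Alleles of CAST that differ from mm10 were not analysed.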

Additional observations from a re-analysis of the deposited data

How the results depend on the processing

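The 5 alternatives of counting and scaling could not change the order of the members. That order is the same in both libraries, and the members' unstranded counts equal their sense counts. Among all genes the ranks were 3 and 7 for Mir139 and Mir744 and 14 or 15 for Mir652. The size of the levels follows the total they are divided by. With all mapped reads as the total the means were 27054 CPM for Mir139, 12954 for Mir744 and 6588 for Mir652 (summed share 4.66%), and with all reads 17960, 8503 and 4342 CPM (3.08%). With the unstranded counts, whose total is smaller because overlapping genes lose reads, Mir744 had 34435 and Mir652 17523 CPM (summed share 12.4%), and over genes that share no 20 bases the summed share was 13.0%. TMM totals and DESeq2 size factors moved the levels by less than the SD. Both raise the total of replicate 1 and lower that of replicate 2, so the mean of the 2 libraries can hardly move. Without either library the levels are those of the other, 63714 to 70999 CPM for Mir139, 31125 to 33281 for Mir744 and 16357 to 16415 for Mir652 (summed share 11.3% to 11.8%). The share of genes past 1.5-fold was 55.1% with all genes that have a read. The share past 2-fold was 25.3% with 2 CPM in either library and 32.7% with all genes that have a read. These filters leave the members' own ratios unchanged, so they cannot move a member past either fold. With unstranded counts, TMM totals, DESeq2 size factors or 1 read added, which do change the ratios, no member passed either fold. Depth sets no limit on the members' levels, which rest on 28728 reads or more, and the number of libraries, 2, limits what the spread can show.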
